A study of Mus musculus with 2 samples.

Results

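The 33 genes described here encode the enzymes, transporters and regulators that move glucose through glycolysis, glycogen and the pentose phosphate pathway. They were taken by symbol from the 32285 genes of the count matrix, and all 33 were found, in 34 matrix rows because Aldoa, the muscle-type aldolase, has 2 rows that were summed. The genes were followed in 1 single-cell 3′ gene expression library of cells sorted from the femurs and vertebrae of female BALB/c mice that had been ovariectomized (OVX, hashtag 1) or sham-operated (sham, hashtag 2) at 10 weeks of age and were sampled 4 weeks later. The cells of 20 mice were pooled per condition, marked with a hashtag antibody and run together, so that each condition is 1 pool and no difference between conditions could be tested. Sorting used CD11b, F4/80 and CD68 after trypsin and overnight collagenase digestion of the bone at 37 °C, and all cells shared that digestion.

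Glycolysis splits glucose into pyruvate and yields ATP without oxygen. The pentose phosphate pathway takes glucose 6-phosphate aside to make NADPH and ribose, and glycogen is the stored form of glucose that phosphorylase releases again. Neutrophils hold few mitochondria, rely on glycolysis for ATP, use NADPH for the oxidative burst and store glycogen. Hypoxia-inducible factor 1 (HIF-1), a transcription factor that is stabilized when oxygen is low and in activated myeloid cells, binds promoters of many glycolytic genes at the core sequence ACGTG.

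That core, searched on either strand in windows from 250 bases before the start to 50 bases after it in the RefSeq promoters of GRCm38.p6, was found in 19 of the 32 members that have an entry (59.4%) and in 5886 of 27025 genes (21.8%). Counted by window, because a gene can have several starts, it was found in 22 of 47 member windows (46.8%) and in 6447 of 32851 windows in all (19.6%). Upstream stretches are shown for 2 hexokinase genes whose levels separated stromal-like cells from neutrophil-like cells, Hk2 and Hk3. They are also shown for 2 textbook HIF-1 targets, the phosphoglycerate kinase gene Pgk1 and the mitophagy gene Bnip3. Pgk1 was higher in stromal-like than in neutrophil-like cells, and Bnip3 was lower in OVX than in sham stromal-like cells. Members without the core, such as Tpi1, are not shown. Capitals mark ACGTG, or CACGT where the core lies on the other strand, and each sequence reads 5′ to 3′ on the strand of the gene. The sequence of Hk2 is chr6:82774455-82774704 (minus strand), that of Hk3 chr13:55021386-55021635 (minus), that of Pgk1 chrX:106186850-106187099 (plus) and that of Bnip3 chr7:138909520-138909756 (minus), all on GRCm38.p6 and all upstream of the annotated gene.
Hk2: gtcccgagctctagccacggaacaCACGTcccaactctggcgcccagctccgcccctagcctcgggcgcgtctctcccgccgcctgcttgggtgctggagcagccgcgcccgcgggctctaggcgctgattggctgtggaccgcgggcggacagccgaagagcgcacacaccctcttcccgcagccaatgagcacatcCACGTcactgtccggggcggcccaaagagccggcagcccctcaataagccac
Hk3: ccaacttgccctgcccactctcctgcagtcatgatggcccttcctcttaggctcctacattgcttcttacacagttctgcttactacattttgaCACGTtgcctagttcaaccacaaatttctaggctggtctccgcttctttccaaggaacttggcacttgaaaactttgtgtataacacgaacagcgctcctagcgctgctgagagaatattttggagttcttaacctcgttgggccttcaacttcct
Pgk1: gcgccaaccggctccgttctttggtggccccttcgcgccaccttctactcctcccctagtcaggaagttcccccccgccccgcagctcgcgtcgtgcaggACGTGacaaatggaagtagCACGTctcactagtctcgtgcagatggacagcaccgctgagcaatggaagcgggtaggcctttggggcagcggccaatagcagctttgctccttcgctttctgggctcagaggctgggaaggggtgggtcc
Bnip3: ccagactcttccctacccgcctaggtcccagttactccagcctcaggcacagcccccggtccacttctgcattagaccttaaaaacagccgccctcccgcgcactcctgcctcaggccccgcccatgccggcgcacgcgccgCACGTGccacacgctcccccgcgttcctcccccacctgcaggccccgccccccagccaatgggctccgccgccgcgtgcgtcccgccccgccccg
Hk2 and Pgk1 hold 2 cores each and Hk3 holds 1. The single CACGTG of Bnip3 reads the same on both strands and was counted as 2 overlapping matches. A match describes the letters only and is not a measured binding site.

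The matrix held 2349 barcodes with 17681092 unique molecular identifiers (UMIs) on genes, a median of 4387 per barcode. One UMI counts one captured transcript whatever its length, so levels of different genes are set side by side without a length correction. Differences between genes in capture or in how reads were assigned were not corrected. Levels are given as CPM, the UMIs of a gene per 1000000 UMIs of the summed cells of a group. HTODemux, which sets a cutoff for each hashtag, placed 1059 barcodes in OVX, 981 in sham, 78 above both hashtag cutoffs and 231 above neither. Clustering without the members and the other listed pathway genes gave 7 groups, so that the members did not shape them. Although the samples are labelled as osteal macrophages, the neutrophil markers S100a8, S100a9, Ly6g, Mmp8 and Retnlg summed to 276401 CPM in the 2020 cells of 5 groups and the macrophage markers to 117 CPM. These 5 groups are called neutrophil-like. They are cycling precursor cells led by Hist1h1b (47 cells), secondary-granule cells led by Ltf and Camp (266), Retnlg-high cells (760), stefin-high cells led by Retnla and Stfa2 (385) and activated cells led by Jaml and Ccl4 (562). A further 119 cells were led by Pf4 and Ppbp of platelets and also by Arg1 of alternatively activated macrophages and H2-Aa of antigen-presenting cells. Their macrophage markers summed to 5277 CPM, and they are called by their genes and not as a cell type. The last 210 cells, led by Prg4 and Dcn, were stromal-like, and 53.3% of them were above neither hashtag cutoff. Median depth ran from 2607.5 UMIs in activated cells to 19996.5 in stromal-like cells. Neutrophil markers were still counted at 1929 CPM in stromal-like cells and stromal markers at 189 CPM in neutrophil-like cells, which gives the level of RNA from other cells to be kept in view for low values.

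Together the members took 122973 UMIs, 0.696% of all. Their share was 0.778% in neutrophil-like cells (95% interval 0.773 to 0.783), 1.06% in the Pf4- and Arg1-rich cells (1.04 to 1.08) and 0.460% in stromal-like cells (0.454 to 0.466). Every interval is an exact Poisson interval, or one derived from it for a ratio, and covers counting error only. Stromal-like cells thus had 0.591 times the share of neutrophil-like cells (0.583 to 0.60). Within the neutrophil-like groups the share was narrowly spread, from 0.676% in cycling precursor cells through 0.765% in stefin-high, 0.781% in secondary-granule and 0.786% in Retnlg-high cells to 0.826% in activated cells. The intervals of stefin-high and secondary-granule cells overlapped, as did those of secondary-granule and Retnlg-high cells. The ratio of late groups (Retnlg-high, stefin-high and activated) to precursor groups (cycling and secondary-granule) was 1.04 (1.02 to 1.06). Cell to cell, among cells with at least 1000 UMIs, the median share was 0.781% in Retnlg-high cells (quartiles 0.624 and 0.943), 0.408% in stromal-like cells (0.329 and 0.535) and 0.909% in the Pf4- and Arg1-rich cells. The last group was the most spread, with a 5th percentile of 0.0751% and a 95th of 1.63%. With equal weight per cell, its share was 0.659% in OVX and 0.890% in sham cells. Activated cells were then at 0.855% and 0.787%, so the Pf4- and Arg1-rich cells were highest in sham only. In summed OVX cells, their interval (0.833 to 0.903) overlapped that of activated cells (0.835 to 0.870).

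**Figure D1:**
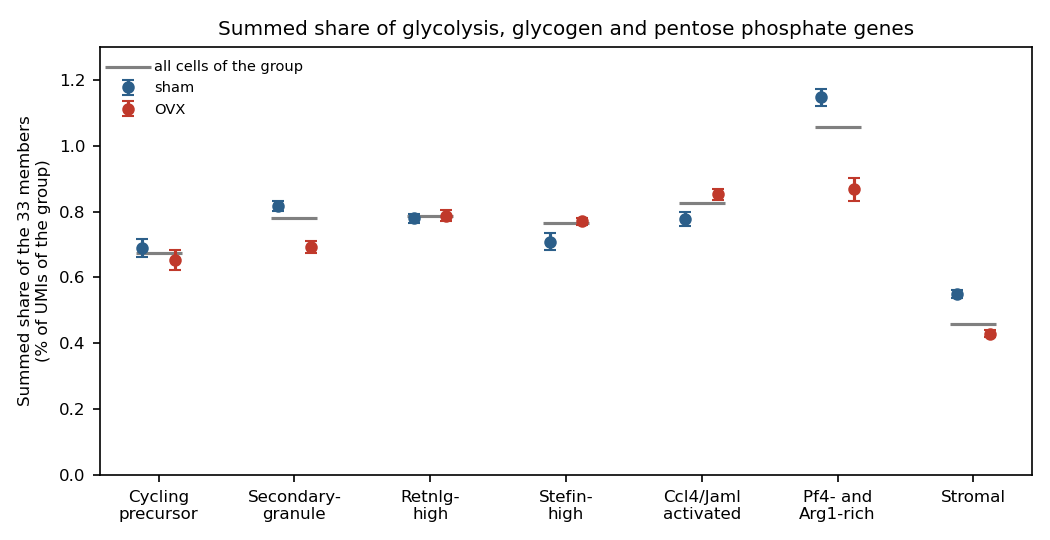
Summed share of the 33 members in percent of all UMIs of a group (vertical axis) for the 7 groups of cells (horizontal axis). Points are the sham and OVX pools with 95% Poisson intervals, grey bars all cells of the group. With UMIs summed over cells, the Pf4- and Arg1-rich cells were highest at 1.06% and stromal-like cells lowest at 0.460%. With equal weight per cell, OVX Pf4- and Arg1-rich cells were at 0.659%, below OVX activated cells at 0.855%. The sham interval lay above the OVX interval in the secondary-granule, Pf4- and Arg1-rich and stromal-like groups.

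A few members made up most of the sum. Gapdh, glyceraldehyde 3-phosphate dehydrogenase, gave 12.4% of member UMIs over all cells and Taldo1, transaldolase of the non-oxidative pentose phosphate branch, 11.4%. They were followed by Aldoa (8.77%), the liver glycogen phosphorylase gene Pygl (8.13%), Hif1a (7.58%), the 6-phosphogluconate dehydrogenase gene Pgd (7.45%) and the pyruvate kinase gene Pkm (7.22%). The enolase gene Eno1 (5.06%), the transketolase gene Tkt (4.15%) and the phosphoglycerate mutase gene Pgam1 (3.46%) completed the 10 with most UMIs. At the other end, Pdk1, which restrains pyruvate dehydrogenase, had 71 UMIs in all 2349 cells, Ldhb 40, Aldoc 16 and Pfkm 9.

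**Figure D2:**
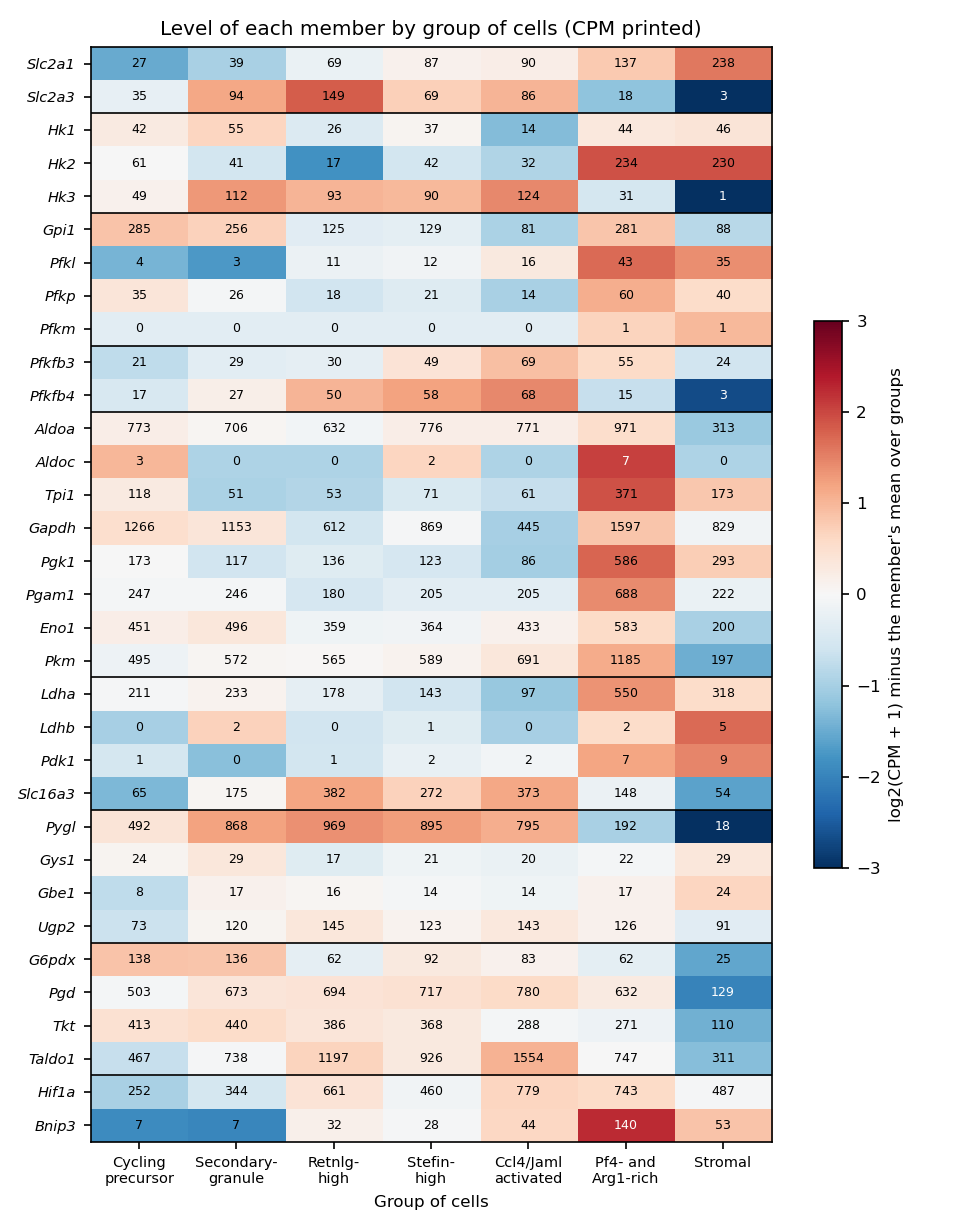
Level of each member (rows, ordered by role) in the 7 groups of cells (columns). Printed numbers are CPM, colours are log2(CPM + 1) minus the mean of that member over the groups; Slc2a3, Hk3 and Pygl are lowest in stromal-like cells, and Taldo1 and Hif1a are lowest among neutrophil-like groups in cycling precursor and highest in activated cells.

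The counts of the glucose transporter genes differed between neutrophil-like and stromal-like cells. Slc2a3, a high-affinity transporter, was at 35.2 CPM in cycling precursor, 94.4 in secondary-granule, 149 in Retnlg-high, 68.7 in stefin-high and 86.2 in activated cells. It was at 17.6 CPM in the Pf4- and Arg1-rich cells and 3.47 CPM in stromal-like cells. Slc2a1, the widespread basal transporter, was highest where Slc2a3 was lowest. It stood at 26.8, 39.4, 68.7, 86.9 and 90.1 CPM in the same 5 neutrophil-like groups, 137 in the Pf4- and Arg1-rich cells and 238 in stromal-like cells, and within the neutrophil-like groups it was, like Slc2a3, lowest in cycling precursor cells. As a share of the pair, Slc2a3 was 70.6% in secondary-granule cells (exact Clopper-Pearson interval 65.1 to 75.7), 68.4% in Retnlg-high cells (64.6 to 72.0) and 1.44% in stromal-like cells (0.870 to 2.24). Stefin-high (44.1%) and activated cells (48.9%) lay between, and their intervals overlapped. After thinning every cell with enough depth to 1000 UMIs, a Slc2a3 UMI was found in 10.5% of 1884 neutrophil-like cells and in 0 of 198 stromal-like cells, which allows a share of up to 1.52%. Without thinning the shares were 31.6% and 7.62%.

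Hexokinases, which trap glucose as glucose 6-phosphate, showed the same kind of exchange. Hk3, the isozyme known from myeloid cells, gave 73.1% of hexokinase UMIs in activated cells (67.7 to 78), 68.5% in Retnlg-high, 53.6% in secondary-granule, 53.4% in stefin-high and 32.4% in cycling precursor cells (23.7 to 42.1). It gave 10.1% in the Pf4- and Arg1-rich cells and 0.461% in stromal-like cells. Hk2, the inducible isozyme bound to mitochondria, gave 82.9% in stromal-like cells (80.9 to 84.8) and 75.6% in the Pf4- and Arg1-rich cells, but 12.3% to 39.8% in the neutrophil-like groups. Hk1 gave 7.97% in activated, 19.3% in Retnlg-high and 22.1% in stefin-high cells. In cells thinned to 1000 UMIs, Hk2 was found in 2.39% of neutrophil-like and 26.8% of stromal-like cells, and Hk3 in 9.39% and in 0 of 198, which again allows up to 1.52%. Unthinned, Hk2 was found in 11.0% and 78.1% and Hk3 in 35.0% and 3.33%.

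The steps that commit sugar to glycolysis were thinly counted. Among phosphofructokinases, the platelet-type Pfkp gave 59 of 66 UMIs in secondary-granule cells and the liver-type Pfkl the remaining 7, a Pfkl share of 10.6% (4.37 to 20.6). The Pfkl share was 38.4% in Retnlg-high, 36.3% in stefin-high and 53.8% in activated cells (39.5 to 67.8), 41.5% in the Pf4- and Arg1-rich cells and 45.6% in stromal-like cells. The muscle type Pfkm was counted in 0 UMIs in all 5 neutrophil-like groups, which together allow a level of up to 0.268 CPM. Gpi1, the isomerase between glucose and fructose 6-phosphate, stood at 285 and 256 CPM in the precursor groups and at 125, 129 and 80.5 CPM in Retnlg-high, stefin-high and activated cells. Pfkfb3 and Pfkfb4 make fructose 2,6-bisphosphate, the strongest activator of phosphofructokinase. Pfkfb4 was at 16.9 CPM in cycling precursor and 67.6 in activated cells, and Pfkfb3 at 21.1 and 69.3.

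**Figure D3:**
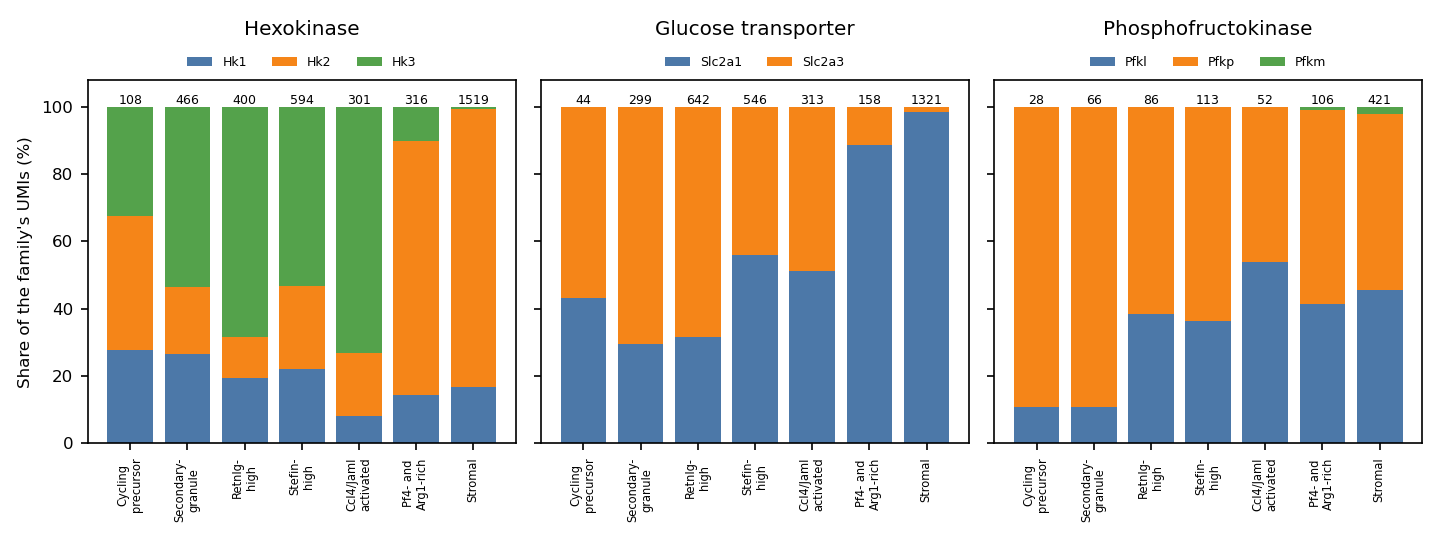
Share of each isozyme in the UMIs of its family in percent (vertical axis) for hexokinases, glucose transporters and phosphofructokinases in the 7 groups of cells; the number above a bar is the family's UMI count. Hk3 and Slc2a3 are at 0.461% and 1.44% in stromal-like cells, and Pfkl takes 10.6% of phosphofructokinase in secondary-granule and 53.8% in activated cells.

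Lower glycolysis was highest in the Pf4- and Arg1-rich cells. Its 8 members summed to 5989 CPM there, against 3526 CPM in cycling precursor, 3340 in secondary-granule, 2536 in Retnlg-high, 2999 in stefin-high, 2692 in activated and 2226 in stromal-like cells. Gapdh was at 1266 and 1153 CPM in the precursor groups and at 445 CPM in activated cells, whereas Pkm was at 495 CPM in cycling precursor and 691 CPM in activated cells. Of lactate dehydrogenase UMIs at least 98.3% were Ldha in every group, and of aldolase UMIs at least 99.3% were Aldoa. Eno1 has a near-identical copy, Eno1b, counted at 7.86 CPM in stromal-like and 19.1 CPM in neutrophil-like cells, and how reads were split between them is uncertain. Slc16a3, which exports lactate, was at 64.8 CPM in cycling precursor, 175 in secondary-granule, 382 in Retnlg-high, 272 in stefin-high, 373 in activated, 148 in the Pf4- and Arg1-rich and 54.4 in stromal-like cells.

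The pentose phosphate members and, among the glycogen members, chiefly Pygl set neutrophil-like cells apart from stromal-like ones. The 4 pentose phosphate members summed to 2201 CPM in neutrophil-like and 575 CPM in stromal-like cells, and the 4 glycogen members to 1032 and 161 CPM, of which Pygl was 868 and 17.5 CPM. Taldo1 was at 467 CPM in cycling precursor, 738 in secondary-granule, 926 in stefin-high, 1197 in Retnlg-high and 1554 in activated cells. G6pdx, the entry enzyme of the oxidative branch, was higher in the precursor groups, with 138 and 136 CPM, than in the late groups, with 61.9, 92.3 and 82.8 CPM in Retnlg-high, stefin-high and activated cells. Pygl was at 492 CPM in cycling precursor, 868 in secondary-granule, 969 in Retnlg-high, 895 in stefin-high and 795 in activated cells, but 192 in the Pf4- and Arg1-rich and 17.5 in stromal-like cells. It was found in 55.3% of thinned neutrophil-like cells and 2.02% of thinned stromal-like cells (88.0% and 29.5% unthinned). The glycogen synthase gene Gys1 and the branching enzyme gene Gbe1 stayed between 8.46 and 29.1 CPM in every group and were not lower in stromal-like cells (Gys1 28.7 against 21.5 CPM, Gbe1 23.9 against 14.6 CPM). Hif1a itself was at 252 CPM in cycling precursor, 344 in secondary-granule, 460 in stefin-high, 661 in Retnlg-high and 779 in activated cells, and at 487 CPM in stromal-like cells.

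**Figure D4:**
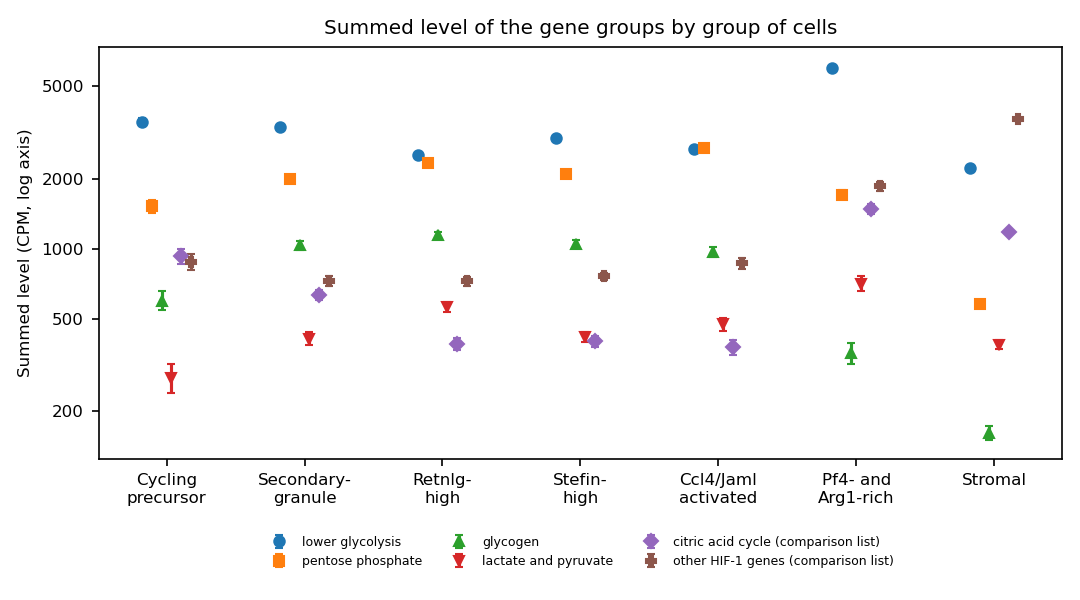
Summed level in CPM (vertical axis, logarithmic) of 4 roles of the members and of 2 lists set beside them, citric acid cycle with pyruvate dehydrogenase and other HIF-1 genes, in the 7 groups of cells; bars are 95% Poisson intervals. The pentose phosphate sum reaches 2704 CPM in activated cells, beside 2692 CPM for lower glycolysis, and the other HIF-1 genes are highest in stromal-like cells at 3605 CPM.

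Stromal-like cells were next compared with all neutrophil-like cells, member by member. A gene entered when the mean of its 2 levels was at least 50 CPM, which 19 members passed, and was called at a ratio of at least 2 in either direction. Of these, 4 members were higher in stromal-like cells, where 43.4% of all 2786 genes that passed were called higher. Another 9 were lower, where 24.2% of all genes were. The median log2 ratio of the 19 members was -0.82 and that of all genes 0.58, so the members' median lay below that of all genes. The 4 higher members were Hk2 (230 against 34.6 CPM, ratio 6.65, 5.93 to 7.47), Slc2a1 (238 against 69.3 CPM, 3.43), the triose phosphate isomerase gene Tpi1 (173 against 63.7 CPM, 2.71) and Pgk1 (293 against 122 CPM, 2.40). Ldha, at 318 against 167 CPM, had a ratio of 1.90 and was just inside the limit. Hk2, under 50 CPM in neutrophil-like cells, passed only through stromal-like cells, where it had to be higher.

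The lower members came mainly from the pentose phosphate branch and the lower end of glycolysis. Pygl was lowest (ratio 0.020, 0.016 to 0.025), then Pgd at 129 against 698 CPM (0.18), Slc16a3 at 54.4 against 284 CPM (0.19), G6pdx (0.27), Tkt at 110 against 377 CPM (0.29) and Taldo1 at 311 against 1031 CPM (0.30). Pkm (0.33), Aldoa (0.43) and Eno1 (0.49) completed the 9. All 4 pentose phosphate members were thus below the limit. Hk3 (1.28 against 98.0 CPM) and Slc2a3 (3.47 against 95.6 CPM) were also far lower in stromal-like cells. Both fell just under the filter, so they are not among the 9 or in this ranking. Pygl and G6pdx, under 50 CPM in stromal-like cells, passed only through neutrophil-like cells and had to be lower in stromal-like cells. The 20 most abundant genes took 46.3% of UMIs in neutrophil-like and 17.7% in stromal-like cells. A total without them moved every log2 ratio, of members and of all genes, by -0.62. The median of all genes thus depends on the total used, and the shares of all genes called were counted under the full total only. Under that total Gapdh (ratio 1.02) and Pgam1 (1.06) turned to 0.66 and 0.69, Tpi1 and Pgk1 came to 1.77 and 1.56, and no called member changed direction. Gpi1 (0.57) and the glycogen member Ugp2 (0.71) came to 0.37 and 0.46, past the limit. The whole sum went from 0.591 to 0.386.

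The other HIF-1 genes lay higher in stromal-like cells than the members did. Among 24 other HIF-1 targets and regulators, 9 passed the filter, 7 were higher in stromal-like cells (background 43.4%) and 1 lower (background 24.2%), with a median log2 ratio of 3.57. Of these 7, 6 were under 50 CPM in neutrophil-like cells and passed only through stromal-like cells, where they had to be higher. The prolyl hydroxylase gene P4ha2, which acts on collagen, was at 113 against 0.984 CPM (ratio 115, 64.0 to 232), the mitochondrial gene Higd1a at 639 against 22.2 CPM (28.8) and Fam162a at 926 against 66.8 CPM (13.9). Of the other listed genes, the smallest ratios were those of the ADP-dependent glucokinase gene Adpgk (0.36), the mitophagy gene Bnip3l (0.45) and the mitochondrial pyruvate carrier gene Mpc2 (0.51). Of 23 citric acid cycle and pyruvate dehydrogenase genes 3 passed, with 0 called and a median log2 ratio of 0.55, and of 45 other genes of the pathways 4 passed, with 1 higher, 1 lower and a median of -0.07. Counted against the citric acid cycle list as a sum, there were 3.88 member UMIs per citric acid cycle UMI in stromal-like cells (3.78 to 3.99) and 16.4 in neutrophil-like cells (16.0 to 16.9).

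From precursor to late neutrophil-like cells the sum of the members hardly moved, and the few members called are not read as a difference from all genes. Of 20 members that passed, 2 were higher in late cells by at least 2-fold, where 12.2% of all 2175 genes were, and 1 was lower, where 13.1% of all genes were. The median log2 ratio was 0.01 for the members and 0.17 for all genes. Slc16a3 was at 333 CPM in late and 148 CPM in precursor cells (ratio 2.24, 2.03 to 2.49), Slc2a1 at 81.1 and 36.3 CPM (2.23, 1.82 to 2.76) and Gpi1 at 117 and 263 CPM (0.44, 0.404 to 0.490). Slc2a1, under 50 CPM in precursor cells, passed only through late cells, where it had to be higher. Short of the limit were Hif1a (ratio 1.87), Taldo1 (1.72) and Pygl (1.16) on one side and Gapdh (0.58), G6pdx (0.58) and Ldha (0.64) on the other. Aldoa (1.00), Hk3 (1.02) and Pkm (1.09) were almost level.

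Among the other genes of the pathways, all 4 that passed were lower in late cells by at least 2-fold, where 13.1% of all genes were. They were Pgls, the lactonase of the oxidative pentose phosphate branch (25.1 against 111 CPM, ratio 0.23), Mpc1 (34.6 against 83.2 CPM, 0.42), Mpc2 (88.0 against 189 CPM, 0.47) and Adpgk. Pgls and Mpc1, under 50 CPM in late cells, passed only through precursor cells and had to be lower in late cells. The largest ratios among the listed genes that are no members were those of the HIF-1 prolyl hydroxylase gene Egln3 (76.3 against 36.7 CPM, 2.08), Bnip3l (1.28) and Fam162a (1.04). Egln3, under 50 CPM in precursor cells, passed only through late cells, where it had to be higher. The citric acid cycle list summed to 703 CPM in precursor and 391 CPM in late cells. The number of member UMIs per citric acid cycle UMI was 7.30 in cycling precursor, 12.4 in secondary-granule, 20.2 in Retnlg-high, 19.2 in stefin-high and 21.9 in activated cells, and 7.12 in the Pf4- and Arg1-rich cells. The intervals of the 3 late groups overlapped in part, and all lay above those of the precursor groups. The mitochondrial share of UMIs was lower in late cells, as was the citric acid cycle sum, at 1.66% in precursor and 0.505% in late cells, and its part was not tested.

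OVX and sham cells were compared within each group of cells, with the same filter and genes called at a ratio of at least 1.5 in either direction. A gene under 50 CPM in OVX or sham cells could pass only through the other condition, where it had to be higher. The sum of the members was lower in OVX in 3 groups. It was 0.693% in OVX and 0.817% in sham secondary-granule cells (ratio 0.848, 0.819 to 0.877), 0.868% and 1.15% in the Pf4- and Arg1-rich cells (0.756, 0.722 to 0.792) and 0.429% and 0.550% in stromal-like cells (0.779). It was slightly higher in OVX in stefin-high cells, at 0.770% and 0.709% (1.09, 1.04 to 1.13), and in activated cells, at 0.852% and 0.778% (1.10, 1.06 to 1.14). The higher sum in stefin-high cells was not shared by most members. Of the 19 that passed the filter there, 8 had a ratio above 1 and 11 below, with a median log2 ratio of -0.04. In activated cells 14 were above 1 and 8 below. In Retnlg-high cells (1.01, 0.983 to 1.04) and cycling precursor cells (0.945, 0.889 to 1.01) the interval included 1. With 1 pool per condition, the spread between mice or pools behind these ratios is unknown.

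In the 36 OVX and 63 sham cells of the Pf4- and Arg1-rich group, 22 members passed the filter, 0 were higher in OVX (background 12%) and 10 were lower (background 18.3%). In OVX cells Pgam1 stood at 405 CPM, in sham cells at 808 CPM (ratio 0.50, 0.405 to 0.615), Pgk1 at 357 and 683 CPM (0.52, 0.416 to 0.652) and Gapdh at 1123 and 1832 CPM (0.61). Tkt (195 and 310 CPM), Pgd (464 and 707 CPM), Eno1 (409 and 667 CPM) and Ldha (412 and 621 CPM) were lower as well, as were the UDP-glucose pyrophosphorylase gene Ugp2 (84.7 and 147 CPM), Slc2a1 (95.7 and 150 CPM) and G6pdx (40.5 and 70.5 CPM, from 11 and 50 UMIs, ratio interval 0.270 to 1.12). The members' median log2 ratio was -0.48 and that of all genes -0.11. When every cell was given equal weight, Pgam1, Pgk1, Ugp2, G6pdx, Pgd and Tkt stayed past the limit, and Gapdh and Eno1 came to 0.72 each and Ldha to 0.78. The cells in this group were not alike in the pools. The dendritic cell marker list, mostly H2-Aa, summed to 2238 CPM in OVX against 24 CPM in sham. The macrophage list summed to 4244 and 5663 CPM, the neutrophil list to 35562 and 21497 CPM, and the mitochondrial share was 6.35% and 3.24%. Cycling markers summed to 18.4 CPM in OVX against 221 CPM in sham, primary granule markers to 0 and 347 CPM and B cell markers to 25.8 and 103 CPM. The part of all these in the differences of the members was not tested. Of the other listed genes, 25 passed, 5 of them lower in OVX and 0 higher. Fam162a (51.5 and 157 CPM, 0.33), the succinyl-CoA ligase gene Suclg1 (0.43) and the cytokine gene Mif (0.57) had the smallest ratios, and Mxi1 (1.48), Rpe (1.46) and Mpc2 (1.20) the largest.

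In stromal-like cells, 38 OVX and 54 sham, 18 members passed, 0 were higher in OVX (background 3.14%) and 6 lower (background 4.73%). Bnip3 stood at 34.0 CPM in OVX against 78.6 CPM in sham cells (ratio 0.43, 0.300 to 0.614), Ldha at 222 and 474 CPM (0.47, 0.407 to 0.537) and Tpi1 at 133 and 251 CPM (0.53). Eno1 (162 and 268 CPM, 0.61), Pkm (172 and 275 CPM, 0.62) and Pgk1 (250 and 381 CPM, 0.65) followed. Only Bnip3 and Ldha stayed past the limit when cells had equal weight (0.53 and 0.55). Bnip3, under 50 CPM in OVX cells, passed only through sham cells and had to be past the limit. Assigning barcodes by the share of hashtag UMIs instead gave 28 OVX and 113 sham cells, 3 members past the limit and a ratio of the sum of 0.838. Stromal markers summed to 39549 CPM in OVX against 29987 CPM in sham, and neutrophil markers to 3491 and 1643 CPM, and their part was not tested. Of 25 other listed genes that passed, 3 were lower in OVX, the HIF-1 prolyl hydroxylase gene Egln1 (0.61), P4ha2 (0.63) and Mif (424 and 637 CPM, 0.67), and the largest ratios were those of Mdh1 (1.38), Sdhb (1.23) and Ero1l (1.21).

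In stefin-high cells, 330 OVX and 40 sham, 19 members passed, 4 were higher in OVX (background 16.4%) and 1 lower (background 12%). In OVX cells Slc16a3 stood at 289 CPM, in sham cells at 138 CPM (ratio 2.10, 1.59 to 2.82), Hif1a at 484 and 257 CPM (1.88, 1.53 to 2.33), Slc2a1 at 91.1 and 52.0 CPM (1.75, from 276 and 20 UMIs) and Taldo1 at 961 and 613 CPM (1.57), whereas G6pdx was at 85.2 and 143 CPM (0.60). For these members, in the same order, the ratios of late to precursor cells given above were 2.24, 1.87, 2.23, 1.72 and 0.58. That comparison holds the same stefin-high cells and is not independent, and only members past the limit here are set beside it. Gpi1, lower in late than in precursor cells by at least 2-fold, was within the limit here. Secondary granule markers, which mark the earlier stage, summed to 5671 CPM in OVX and 16395 CPM in sham stefin-high cells, and late neutrophil markers to 5520 and 3346 CPM. Their part was not tested. With equal weight per cell Slc16a3 (1.83) and Hif1a (1.68) stayed past the limit, and Taldo1 (1.47), Slc2a1 (1.3) and G6pdx (0.70) did not. Among 7 other listed genes that passed, Bnip3l (218 and 132 CPM, 1.64) was higher, Mpc2 (0.57) and Adpgk (0.65) lower, and Fam162a (1.08) and Mxi1 (1.22) were within the limit.

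In activated cells, 306 OVX and 232 sham, 22 members passed, 2 were higher in OVX (background 10.7%) and 0 lower (background 9.26%). Pgam1 stood at 250 CPM in OVX against 128 CPM in sham cells (ratio 1.95, 1.51 to 2.53) and Ldha at 111 and 65.0 CPM (1.71, 1.19 to 2.51). The ratios of both lay on the other side of 1 in the Pf4- and Arg1-rich cells. Slc2a1, at 97.8 and 68.3 CPM, was within the limit here, as it was in Retnlg-high cells at 82.5 and 63.3 CPM. Stefin markers also differed here, at 11593 CPM in the OVX and 4847 CPM in the sham cells, and their part was not tested. Of 6 other listed genes, Egln3 (148 and 94.3 CPM, 1.57) was higher and Sdhd (0.64) lower, with Mpc2 (1.42), Ero1l (1.25), Arnt (1.20) and Bnip3l (1.01) between.

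In Retnlg-high cells, 250 OVX and 428 sham, 21 members passed, 1 was higher in OVX (background 8.91%) and 2 were lower (background 4.83%). Pfkfb4 stood at 86.3 CPM in OVX against 31.4 CPM in sham cells (ratio 2.75, 1.93 to 3.96, from 91 and 51 UMIs), and stayed at 2.56 with equal weight per cell. Under 50 CPM in sham cells, it passed only through OVX cells and had to be past the limit. Slc2a3 was at 109 and 172 CPM (0.63, 0.505 to 0.790) and Eno1 at 268 and 411 CPM (0.65). Stefin markers summed to 8496 CPM in OVX and to 4207 CPM in sham cells, and their part was not tested. Egln3 (1.89), Mxi1 (1.47) and Mdh2 (1.29) had the largest ratios among 8 other listed genes, and Mpc2 (0.96), Sdhd (0.96) and Bnip3l (1.12) the smallest.

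In secondary-granule cells, 82 OVX and 141 sham, 20 members passed, 1 was higher in OVX (background 3.43%) and 2 were lower (background 13.1%). Slc2a3 was lower here too, at 59.2 and 100.2 CPM (0.59, 0.410 to 0.840), Taldo1 was at 536 and 837 CPM (0.64, 0.569 to 0.719), and Tpi1 was higher, at 79.0 and 36.5 CPM (2.16, 1.44 to 3.28, from 60 and 43 UMIs). All 3 stayed past the limit with equal weight per cell. Tpi1, under 50 CPM in sham cells, passed only through OVX cells and had to be past the limit. The mitochondrial share was 2.25% in OVX and 1.36% in sham cells and stefin markers summed to 10352 and 7479 CPM, and their part was not tested. The median log2 ratio was -0.27 for the members and -0.17 for all genes. Fam162a (1.72), the growth factor gene Vegfa (1.61) and Pgls (1.32) were highest among 11 other listed genes, and Mpc1 (0.69), Mxi1 (0.74) and Adpgk (0.82) lowest. In cycling precursor cells, 17 OVX and 23 sham, 18 members passed, 1 was higher in OVX (background 12.6%) and 2 were lower (background 12.7%). Hk2 was at 72.9 and 46.2 CPM (1.58, 0.777 to 3.26), Pkm at 368 and 555 CPM (0.66) and Tkt at 310 and 506 CPM (0.61, 0.467 to 0.799). Only Tkt stayed past the limit both with equal weight per cell and with the other hashtag rule. Cycling markers summed to 4344 CPM in OVX against 2008 CPM in sham cells, stefin markers to 6102 and 10981 CPM, and the mitochondrial share was 2.69% and 1.34%. Their part was not tested. Among 15 other listed genes, Mif (2.06), Fam162a (1.62) and Mpc1 (1.26) were highest and Ero1l (0.60), Adpgk (0.68) and Bnip3l (0.72) lowest.

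**Figure D5:**
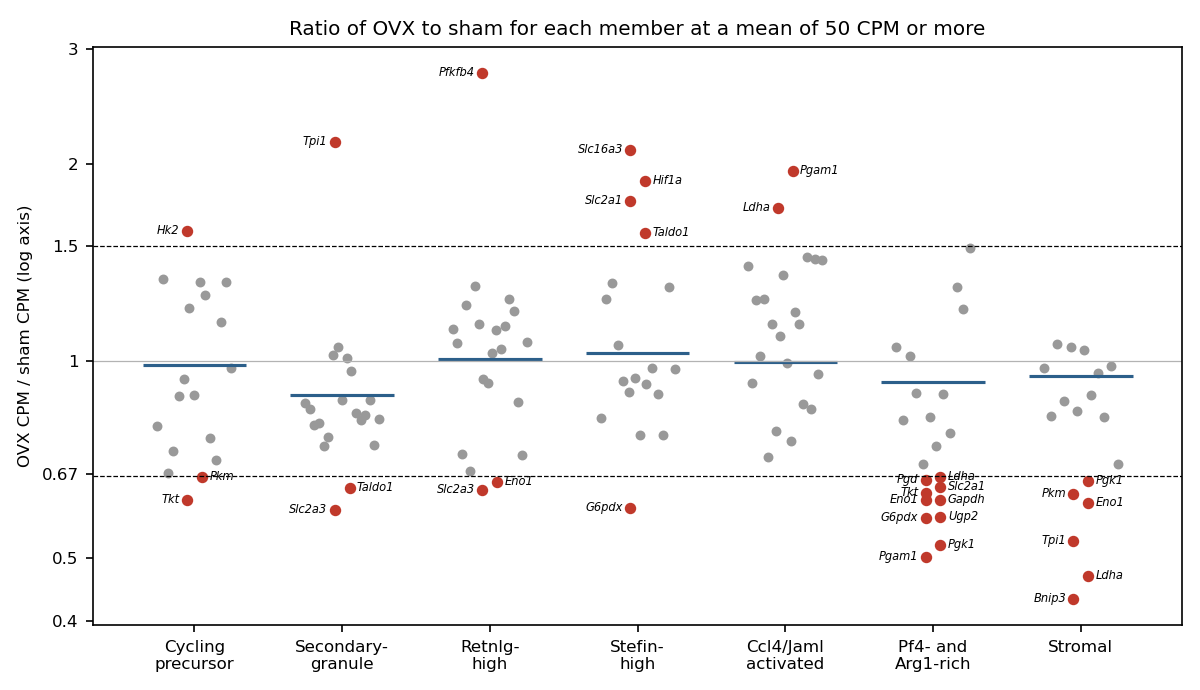
Ratio of OVX to sham CPM (vertical axis, logarithmic) for each member with a mean of at least 50 CPM in a group of cells (horizontal axis). Red points with names are at or past a ratio of 1.5 in either direction (dashed lines), grey points are within it, blue bars are the median of all genes. In the Pf4- and Arg1-rich cells 10 of 22 members lie below the lower line, where 18.3% of all genes do. In stefin-high cells 4 of 19 lie above the upper line, where 16.4% of all genes do.

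Over the 7 groups, 32 pairs of a member and a group were past the limit, in 30 of which the interval of the ratio excluded 1. Of all genes, 3.14% to 16.4% were called higher in OVX and 4.73% to 18.3% lower, depending on the group. The 32 pairs are therefore not read as particular to the members. Of the 32, 19 stayed past it with equal weight per cell, 29 with the other hashtag rule and 18 with both. Slc2a3, Pgk1, Pkm, Tkt and G6pdx were each lower in OVX in 2 groups and Eno1 in 3, with 0 groups in the other direction for any of them. With equal weight per cell, Eno1 did not stay past the limit in the Pf4- and Arg1-rich or the stromal-like cells. Neither did Pgk1 and Pkm in stromal-like cells or G6pdx in stefin-high cells. Taldo1, Tpi1, Pgam1, Slc2a1 and Ldha were past the limit in opposite directions in different groups. Of the members that passed the filter in all 7 groups, only Aldoa and Gpi1 were past the limit in 0 groups.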

How the data were processed

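The deposited values are raw UMI counts of genes and of 2 hashtags, which the authors made with Cell Ranger (6.0.0 in the matrix header, 6.0.1 in the submitters' processing notes) on mm10. Barcodes had already been called as cells. Condition came from hashtag counts alone, by HTODemux (Seurat 5.3.0, R 4.3.3, positive quantile 0.99). Barcodes above both cutoffs (78), the only treatment of doublets, or above neither (231) were left out of OVX against sham. Barcodes under 1000 UMIs were left out of the thinned values and of the cell-to-cell shares. Some of the alternatives left out barcodes by their own rules, and no barcode was left out elsewhere. Cells were clustered with scanpy 1.11.5 and Louvain clustering of igraph 0.11.9 (Python 3.11.15; 2000 variable genes less the listed pathway genes, 30 principal components, 15 neighbors) into 6 clusters, and the one highest in cycling markers was split in 2. For each group UMIs were added up and given as CPM with exact Poisson intervals, and ratios (fold) were computed from those sums with exact conditional intervals (scipy 1.17.1). There is 1 library and 1 pool per condition, so no p-value, standard error or test is given. A gene entered a comparison at a mean of 50 CPM, and limits were 2-fold between groups of cells and 1.5-fold between OVX and sham. Interval code was tested on simulated data. Values are given for the 10 members with most UMIs, members past a limit and isozyme families, and for the other listed genes at the 3 largest and 3 smallest ratios of each comparison, less 1 that is not reported here. The members and lists were chosen with earlier results of these data known. Coordinates are GENCODE GRCm38 and promoter sequences RefSeq GRCm38.p6. Alternatives tried were equal weight per cell, a barcode filter, members kept in the clustering, 1000 variable genes, 7 clusters, a total without the 20 most abundant genes, the sum without Gapdh, thinning to 1000 UMIs, another hashtag rule, a filter at 10 CPM and a 2-fold limit.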

Additional observations from a re-analysis of the deposited data

Results flagged for a closer look

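The ratio of OVX to sham in the summed share of the members lay on opposite sides of 1 in different groups of cells. It was 0.848 in secondary-granule, 0.756 in the Pf4- and Arg1-rich and 0.779 in stromal-like cells, but 1.09 in stefin-high and 1.10 in activated cells, each with a counting interval that excludes 1. Genes in general shifted too. The median log2 ratios of members and of all genes were -0.27 and -0.17 in secondary-granule and -0.48 and -0.11 in the Pf4- and Arg1-rich cells. They were -0.27 and -0.08 in stromal-like, -0.04 and 0.04 in stefin-high and 0.19 and -0.01 in activated cells. The difference between groups was not tested, because each condition is 1 pool.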

How the results depend on the processing

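No paired analysis was possible because each condition is 1 pool in 1 library. No ratio of the summed share that excluded 1 by its counting interval turned direction under an alternative, but several moved beyond that interval, and the causes were not tested. The stromal-like to neutrophil-like ratio of the summed share was 0.571 with equal weight per cell, 0.386 without the 20 most abundant genes in the total, 0.542 without Gapdh and 0.613 with cells thinned to 1000 UMIs. The late to precursor ratio was 1.06 with equal weight, 1.07 after the barcode filter, 1.02 with members kept in the clustering, 1.06 without the 20 most abundant genes and 1.13 without Gapdh. The OVX to sham ratio moved to 0.80 (equal weight), 0.810 (members kept), 0.878 (7 clusters) and 0.90 (without the 20 genes) in secondary-granule cells, and to 1.04 (equal weight), 0.957 (1000 variable genes) and 1.04 (without Gapdh) in Retnlg-high cells. It moved to 1.15 (barcode filter), 1.02 (without the 20 genes), 1.14 (without Gapdh) and 1.03 (thinned) in stefin-high cells, to 1.05 (1000 variable genes) in activated cells, and to 0.799 (members kept) and 0.802 (without the 20 genes) in the Pf4- and Arg1-rich cells. In stromal-like cells it was 0.851 (equal weight), 0.838 (thinned) and 0.838 (other hashtag rule), and in cycling precursor cells 1.04 (1000 variable genes), 0.821 (7 clusters) and 0.870 (thinned). With members kept in the clustering, no cluster matched the cycling precursor cells. Members past the limit numbered 7, 7, 6, 9, 4 and 11 in cycling precursor, secondary-granule, Retnlg-high, stefin-high, activated and stromal-like cells at a filter of 10 CPM. At a limit of 2-fold they numbered 0, 1, 1, 1 and 0 in the first 5 of these groups, 0 in the Pf4- and Arg1-rich and 2 in stromal-like cells. The other hashtag rule left 3 in stromal-like cells. The shares over all genes at these settings are not given, so these counts are not read as results about the members. Depth limits Pfkm, Aldoc, Ldhb and Pdk1, whose few UMIs allow little comparison between groups. Between stromal-like and neutrophil-like cells the counting intervals lay apart for Pdk1 (8.59 and 1.52 CPM) and Ldhb (5.48 and 0.715 CPM).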
